A study of Mus musculus with 16 samples.

Results

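The odorant receptors of mouse chromosome 10 were described across sorted cells of the olfactory mucosa, where the olfactory sensory neurons lie. A receptor was included where the name of its probe set, the group of probes that reads a gene on the array, placed it on chromosome 10 and the platform annotation gave it an Olfr symbol with a number. 65 of the 1091 odorant receptor genes on the array met this rule, and the other 1026 were used for comparison. In RefSeq gene order the 65 receptors fell into 2 groups, a proximal group of 9 receptors and a distal group of 56 receptors, with 472 other coding genes between them. RefSeq lists 80 odorant receptor genes on this chromosome, 68 of them coding for protein and 12 of them pseudogenes, and 3 of the coding genes were not among the 65.

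The mice were C57BL/6 animals of both sexes, 7 to 12 weeks old, and all of them carried S100a5-tauGFP, a fusion of tau and green fluorescent protein (GFP) under the control of the activity-dependent gene S100a5. 24 mice spent 40 h singly in clean air at 3.1 L/min, and from 26 h on they received a 10 s pulse of undecanal, a fatty aldehyde odorant, or of filtered air as vehicle every 20 min. Cells were pooled from 3 mice and sorted on GFP, and RNA of 4 pools per agent was hybridised to Clariom S arrays. This gave 16 arrays in 4 groups of 4: undecanal titled GFP+, vehicle titled GFP+, undecanal titled GFP- and vehicle titled GFP-.

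Odorant receptors are G protein-coupled receptors, and a mature olfactory sensory neuron expresses mainly a single receptor gene from a single allele. The fish-like class I receptors of the mouse lie together on another chromosome, so the receptors of chromosome 10 belong to the class II receptors of land vertebrates. Receptor genes arose largely by local duplication, and neighbours are often near copies. Because S100a5 transcription follows neuronal activity, cells can be sorted by how active their neurons were, and the question of such a design is which receptors respond to the odorant. The labels name no ligand for any receptor of this chromosome.

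How alike such copies are is shown by the first 50 coding bases of 4 pairs whose differences are compared later, since probe sets of close paralogs can share signal. The sequences are RefSeq's for GRCm38.p6, written 5′ to 3′ on the coding strand, and capitals mark the bases that differ within a pair.
Olfr1354 (chr10:78916842-78916891, plus strand): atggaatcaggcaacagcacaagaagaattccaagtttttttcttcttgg
Olfr8 (chr10:78955207-78955256, plus strand): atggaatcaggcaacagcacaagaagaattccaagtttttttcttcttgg
Olfr825 (chr10:130163275-130163324, minus strand): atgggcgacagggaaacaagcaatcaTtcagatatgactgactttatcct
Olfr826 (chr10:130180829-130180878, minus strand): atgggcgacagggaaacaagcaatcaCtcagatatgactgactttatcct
Olfr816 (chr10:129912227-129912276, minus strand): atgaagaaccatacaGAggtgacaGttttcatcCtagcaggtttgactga
Olfr822 (chr10:130074412-130074461, plus strand): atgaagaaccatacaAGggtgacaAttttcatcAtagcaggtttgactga
Olfr775 (chr10:129250536-129250585, plus strand): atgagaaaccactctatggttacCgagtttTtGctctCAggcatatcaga
Olfr776 (chr10:129260963-129261012, plus strand): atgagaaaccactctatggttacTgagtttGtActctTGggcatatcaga
The Olfr1354 and Olfr8 starts are identical over all 50 bases, the Olfr825 and Olfr826 starts over 49, the Olfr816 and Olfr822 starts over 46 and the Olfr775 and Olfr776 starts over 45. Over the 1128 pairs among the 48 receptors with such a sequence, the median was 21 identical bases.

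In each of the 16 samples the GFP sign in the title is the reverse of that in the characteristics. Fractions are therefore called titled GFP+ and titled GFP-, and all directions between them follow the titles. S100a5, which drives the reporter, had log2 levels of 15.96, 15.62, 15.74 and 15.75 in undecanal arrays titled GFP+ and of 17.06, 16.94, 16.49 and 16.45 in undecanal arrays titled GFP-. In vehicle pools it had 15.62, 15.66, 15.54 and 15.84 in arrays titled GFP+ and 16.91, 16.37, 16.37 and 16.66 in arrays titled GFP-. S100a5 was therefore lower in the fraction titled GFP+, without overlap, which goes with the characteristics and against the titles. Markers of other cells moved with the fractions too. All 9 markers of neutrophils and other immune cells were higher in the titled GFP+ fraction of vehicle pools, and their mean level ranged from 12.36 to 13.48 in vehicle arrays titled GFP+ and from 4.67 to 5.26 in vehicle arrays titled GFP-. All 8 markers of immature olfactory neurons were higher as well (10.66 to 10.86 in vehicle arrays titled GFP+, 8.21 to 8.48 in vehicle arrays titled GFP-), as were 6 of 6 microvillar, 4 of 7 basal and progenitor, 3 of 7 sustentacular and 2 of 2 erythroid markers. Of 9 markers of mature olfactory neurons none was higher and 1, Ano2, was lower, and their mean level ranged from 15.85 to 15.90 in vehicle arrays titled GFP+ and from 16.02 to 16.15 in vehicle arrays titled GFP-. The part of these cells in the receptor differences was not tested. In bulk samples, fewer cells of a type and less RNA per cell cannot be told apart.

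Most receptors of chromosome 10 were detected. A background level of log2 4.80 was set at the 95th percentile of the group means of 358 vomeronasal and bitter receptor probe sets, whose genes are not expected in these neurons. 62 of the 65 receptors lay above it in all 4 groups, Olfr780 and Olfr782 lay above it in both titled GFP+ groups and below it in both titled GFP- groups, and Olfr768 lay below it in all 4. The array median over the 65 receptors was 9.21 to 9.54 in undecanal arrays titled GFP+ and 7.38 to 8.57 in undecanal arrays titled GFP-, and 8.996 to 9.32 in vehicle arrays titled GFP+ and 7.77 to 8.28 in vehicle arrays titled GFP-. The fractions did not overlap on this measure under either agent. Over all 1091 receptors the array medians overlapped under both agents, at 8.40 to 8.63 and 8.25 to 8.73 in the undecanal fractions titled GFP+ and GFP-, and at 8.14 to 8.67 and 8.39 to 8.89 in the vehicle fractions titled GFP+ and GFP-. For the spread within groups, the median SD over the 65 receptors was 0.43 in undecanal titled GFP+, 0.37 in vehicle titled GFP+, 0.58 in undecanal titled GFP- and 0.48 in vehicle titled GFP- arrays. Over the other receptors it was 0.42, 0.45, 0.46 and 0.49 in the same order of groups, and over all probe sets 0.24 to 0.26.

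Between the sort fractions of vehicle pools, more receptors of chromosome 10 were higher than lower in the fraction titled GFP+. By limma, with p-values adjusted over all 22206 probe sets and a threshold of 0.05, 24 of the 65 receptors were higher, against 8.82% of all probe sets, and 9 were lower, against 5.12% of all probe sets. Together 50.8% of the receptors were called, against 13.9% of all probe sets. Of the other 1026 odorant receptors 223 were higher and 385 were lower, 59.3% called. The share called was thus near that of the receptor family, while higher calls made up 72.7% of the calls on chromosome 10 and 36.7% of the calls among the other receptors. On the log2 scale the fraction titled GFP+ differed from the fraction titled GFP- by a median of 0.54 for the 65 receptors, -0.40 for the other receptors and -0.11 for all probe sets. These are descriptions, and the difference between the chromosome 10 receptors and the other receptors was not tested. The split depends on the scale: higher calls made up 58.5% (24 higher, 17 lower) with arrays centred on their median, which puts the median of all probe sets at -0.47, 82.4% (28 higher, 6 lower) with arrays centred on the mature neuron markers, and 83.8% (31 higher, 6 lower) with arrays centred on the receptor median. The median of the 65 receptors was positive under each of these scales, from 0.19 to 0.78. In 26 receptors all 4 vehicle arrays titled GFP+ lay above all 4 vehicle arrays titled GFP-, and in 7 all lay below, 33 of 65 against 18.1% of all probe sets without overlap.

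**Figure D1:**
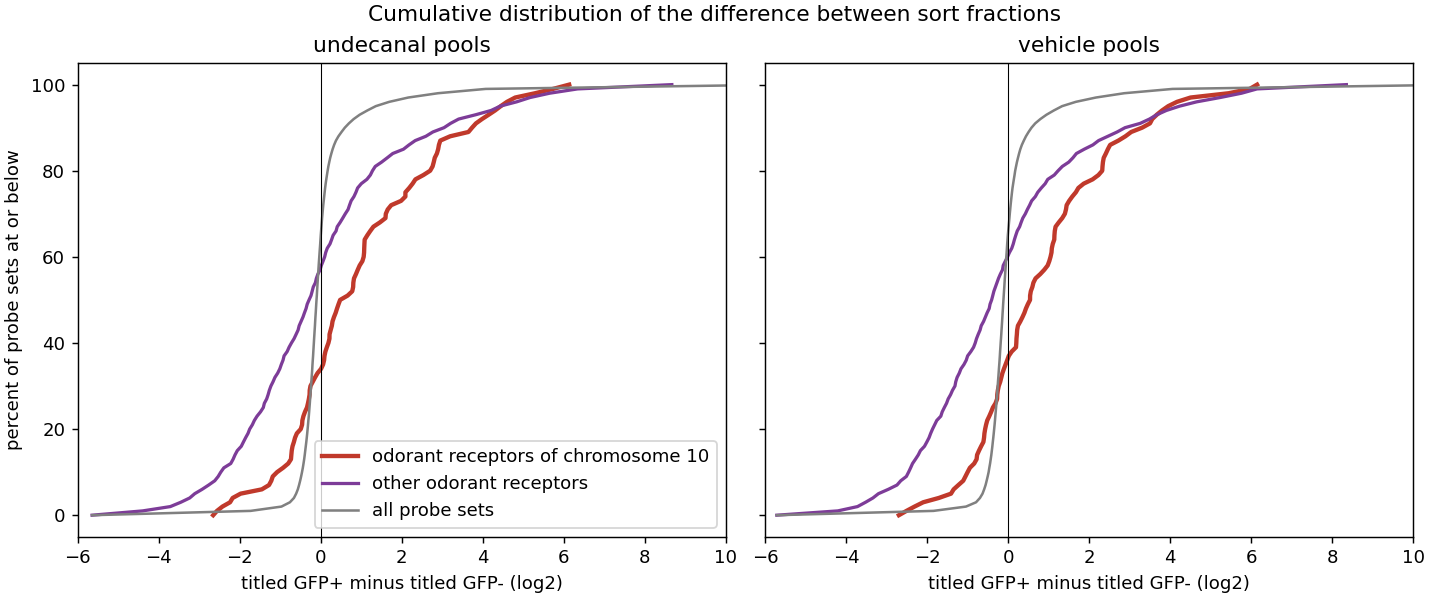
Cumulative distribution of the difference between sort fractions (titled GFP+ minus titled GFP-, log2, x axis) in undecanal pools (left) and vehicle pools (right). The y axis gives the percent of probe sets at or below each difference, for the 65 odorant receptors of chromosome 10 (red), the 1026 other odorant receptors (purple) and all 22206 probe sets (grey, whose upper end lies beyond the axis); the red curve crosses 50% near 0.48 on the left and 0.54 on the right, to the right of the purple curve, which crosses near -0.29 and -0.40.

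The largest difference on the chromosome was that of Olfr794, a receptor of the distal group. It had log2 levels of 12.29, 12.06, 11.88 and 12.10 in undecanal arrays titled GFP+ against 6.98, 6.84, 5.25 and 4.73 in undecanal arrays titled GFP-, and of 12.82, 12.05, 11.86 and 11.87 in vehicle arrays titled GFP+ against 7.70, 5.55, 4.34 and 6.41 in vehicle arrays titled GFP-. Every array titled GFP+ lay above every array titled GFP-, and 1 array titled GFP- under each agent was below background. The difference in vehicle pools was 6.15 (SE 0.56, limma adjusted p = 2.31e-07), a 71.0-fold higher level in titled GFP+.

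Olfr825, Olfr826 and Olfr827, 3 neighbours at the distal end, formed the highest run. Olfr826 had 12.75, 12.30, 11.64 and 12.46 in vehicle arrays titled GFP+ against 6.78, 6.32, 6.95 and 5.63 in vehicle arrays titled GFP-, a difference of 5.86 (SE 0.37, limma adjusted p = 1.78e-09). Olfr825 had 9.85, 9.53, 9.83 and 9.67 against 5.64, 5.59, 4.51 and 5.58 in the same arrays titled GFP+ and titled GFP-, a difference of 4.39 (SE 0.30). Olfr827 had 8.95, 9.48, 9.30 and 9.83 against 4.82, 6.14, 5.13 and 5.46 in the same arrays titled GFP+ and titled GFP-, a difference of 4.00 (SE 0.32). In all 3 receptors every array titled GFP+ lay above every array titled GFP-, and 1 vehicle array titled GFP- of Olfr825 was below background. In undecanal pools the differences were 5.51 for Olfr826, 4.27 for Olfr825 and 4.74 for Olfr827. Of the undecanal arrays titled GFP-, 2 of Olfr825 (4.68 and 4.77) and 1 of Olfr827 (4.16) were below background.

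Further receptors of the distal group were higher by several units. Olfr809 averaged 9.49 ± 0.61 in vehicle arrays titled GFP+ and 5.72 ± 0.62 in vehicle arrays titled GFP- (SD, n = 4 each), a difference of 3.76. Olfr816 averaged 11.78 ± 0.12 in vehicle arrays titled GFP+ and 8.21 ± 0.51 in vehicle arrays titled GFP- (SD, n = 4 each), a difference of 3.57. Olfr816 stayed far above background in both fractions, unlike Olfr780, whose difference of 3.05 rests on vehicle titled GFP- levels of 4.62, 5.04, 3.00 and 3.94, near or below background, so that no fold is given for it. Olfr815 differed by 2.51 (2.24 in undecanal pools) and Olfr769 by 2.35 (3.77 in undecanal pools, where 2 of the 4 arrays titled GFP-, at 3.79 and 4.29, were below background). The 12 other receptors called higher in vehicle pools (Olfr822, Olfr813, Olfr807, Olfr770, Olfr792, Olfr805, Olfr812, Olfr777, Olfr810, Olfr791, Olfr775 and Olfr820) differed by 1.07 to 2.33. Of these, the calls of Olfr775, Olfr791, Olfr792 and Olfr812 were lost when 1 vehicle pool was left out. For Olfr775 this was pool 1 or 3, for Olfr791 pool 3 or 4, for Olfr792 pool 1, 2 or 3 and for Olfr812 pool 2, 3 or 4, with limma adjusted p up to 0.171. The calls of Olfr792 and Olfr812, whose fractions overlap, were also lost after quantile normalization, and that of Olfr792 when only the groups compared were fitted. Vehicle array 4 of Olfr812 titled GFP-, at 4.43, was below background.

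9 receptors were lower in the fraction titled GFP+ of vehicle pools. Olfr1356, of the proximal group, had 8.64, 8.47, 8.90 and 9.01 in vehicle arrays titled GFP+ against 11.30, 11.26, 11.49 and 11.75 in vehicle arrays titled GFP-. The fractions were separate, and the difference was -2.69 (SE 0.24, limma adjusted p = 1.83e-07), the lowest on the chromosome. Olfr57, also proximal, had 7.49, 7.91, 8.32 and 8.32 in vehicle arrays titled GFP+ against 10.21, 9.95, 10.89 and 10.60 in vehicle arrays titled GFP-, a difference of -2.40 (SE 0.25). Olfr788, a distal receptor, had 12.74, 11.84, 12.47 and 12.79 in vehicle arrays titled GFP+ against 14.77, 14.64, 14.27 and 14.43 in vehicle arrays titled GFP-, a difference of -2.07 (SE 0.25). All 3 were well above background in both fractions and separate in every array. Olfr767 (-1.43), Olfr787 (-1.12), Olfr811 (-1.33), Olfr801 (-1.03), Olfr1353 (-0.95) and Olfr776 (-0.78) differed less, and the fractions of Olfr801 and Olfr1353 overlapped. The calls of Olfr801, Olfr1353 and Olfr776 were lost with arrays centred on the mature neuron markers or on the receptor median, and that of Olfr776 also with the pool as a block (limma adjusted p = 0.0614). Those of Olfr801 and Olfr811 were lost without vehicle pool 1 or 2, that of Olfr1353 without vehicle pool 1, 2 or 3 or undecanal pool 3 and when only the groups compared were fitted, and that of Olfr776 without vehicle pool 2 or 3. Without vehicle pool 2 only 5 receptors were called lower. 25 of the 33 calls, 20 higher and 5 lower, held under every alternative tried. In undecanal pools Olfr811 (-0.62) and Olfr1353 were not called.

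**Figure D2:**
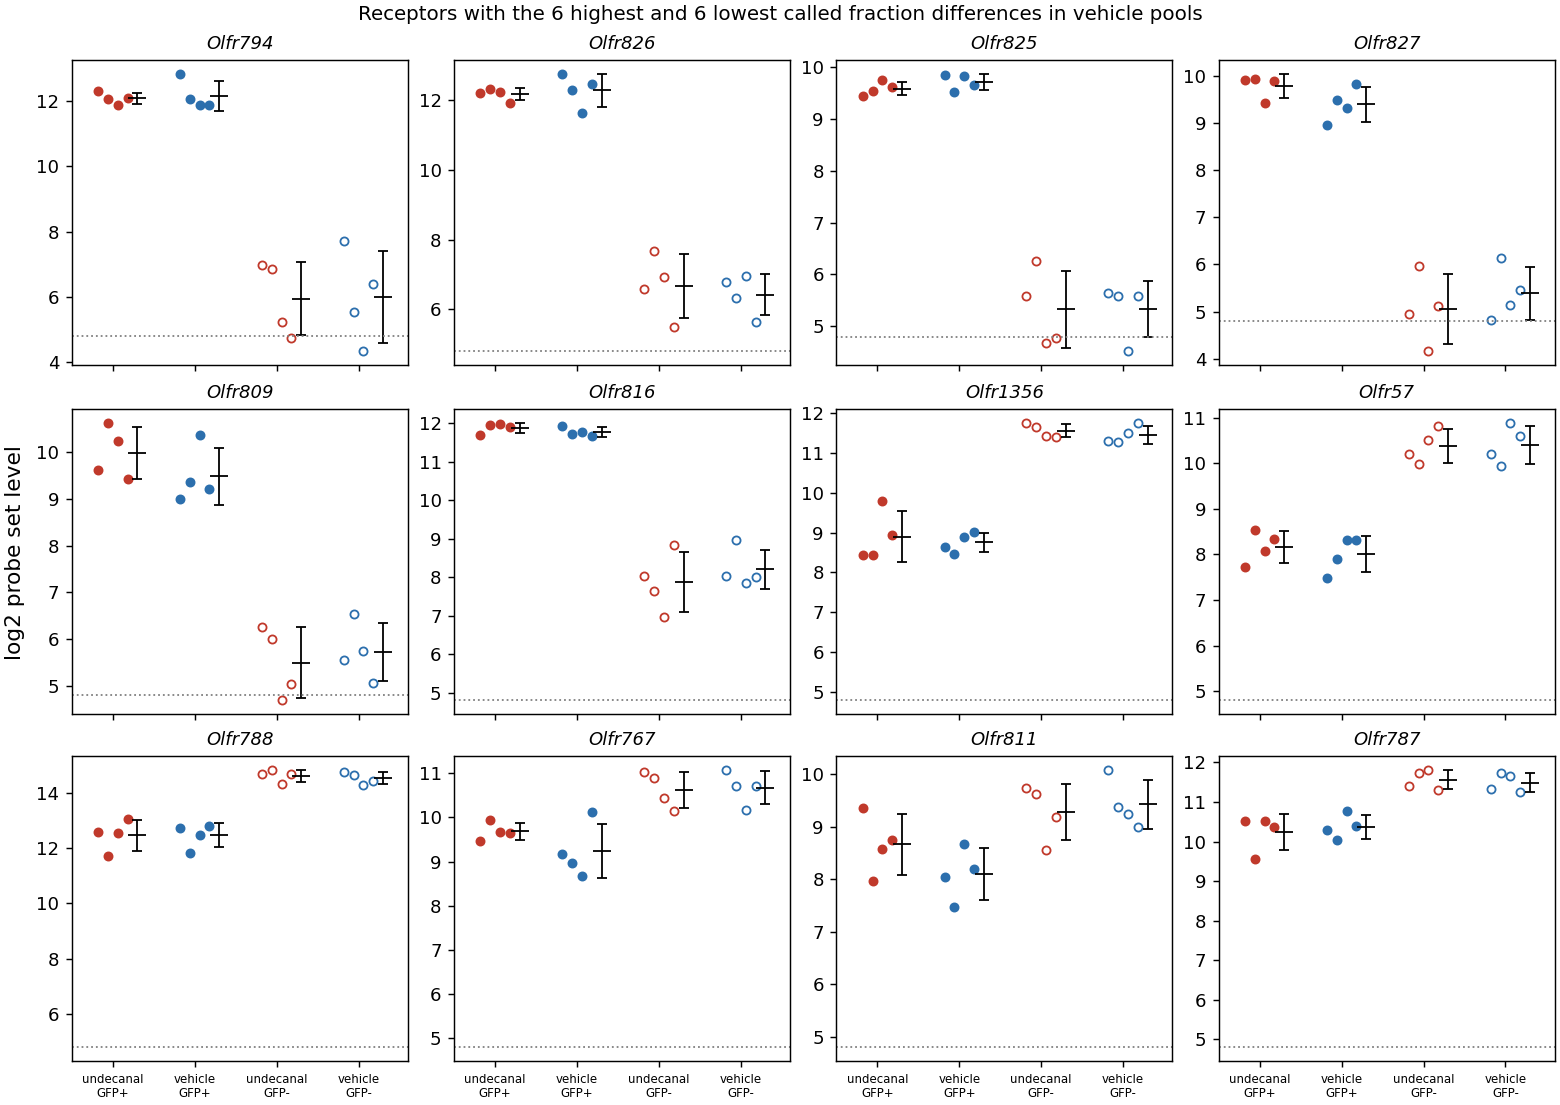
Log2 probe set level (y axis, a scale per panel) of the 6 receptors with the highest and the 6 with the lowest called difference between fractions in vehicle pools. Each point is 1 array, in the order undecanal and vehicle titled GFP+ (filled) and undecanal and vehicle titled GFP- (open), bars give mean ± SD (n = 4) and the dotted line is the background level of 4.80; in Olfr794, Olfr826, Olfr825, Olfr827, Olfr809 and Olfr816 every array titled GFP+ lies above every array titled GFP-, and in Olfr1356, Olfr57 and Olfr788 every one lies below.

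The 9 receptors of the proximal group held both directions side by side. Olfr1357, Olfr1354 and Olfr8 were higher in the fraction titled GFP+ of vehicle pools, Olfr1356, Olfr1353 and Olfr57 were lower, and Olfr1355 (-0.37), Olfr1352 (-0.15) and Olfr1351 (-0.18) did not pass. Olfr1357 had 10.47, 10.51, 10.73 and 10.21 in undecanal arrays titled GFP+ against 8.76, 6.11, 7.66 and 7.74 in undecanal arrays titled GFP-, and 10.54, 10.07, 10.51 and 10.34 in vehicle arrays titled GFP+ against 9.10, 5.75, 7.86 and 7.43 in vehicle arrays titled GFP-. Its levels titled GFP+ lay close together while its levels titled GFP- were spread widely, without overlap between fractions, and the difference in vehicle pools was 2.83 (SE 0.54, limma adjusted p = 1.03e-03). Its neighbour Olfr1356 ran the other way, and the gap between the differences of these 2 neighbours was 5.52. Olfr1354 averaged 10.40 ± 0.22 in vehicle arrays titled GFP+ and 6.92 ± 0.95 in vehicle arrays titled GFP- (SD, n = 4 each), a difference of 3.48. Olfr8, next to it, averaged 8.37 ± 0.22 in vehicle arrays titled GFP+ and 5.94 ± 1.03 in vehicle arrays titled GFP- (SD, n = 4 each), a difference of 2.44. Array 2 of Olfr8 titled GFP- was below background under both agents (4.65 under undecanal and 4.63 under vehicle). Olfr1351 ran from 4.49 to 6.21 over all 16 arrays, with overlapping fractions under both agents.

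Undecanal pools, which share no array with vehicle pools, gave much the same order of receptors. In them 27 receptors were higher in the fraction titled GFP+, against 8.83% of all probe sets, and 9 were lower, against 4.36%. This is 55.4% called, against 13.2% of all probe sets, with a median difference of 0.48 for the 65 receptors and of -0.29 for the other receptors. With arrays centred on their median the split was 23 higher and 14 lower, and the median of the 65 receptors remained positive on every scale, from 0.12 to 0.67. 23 receptors were called higher and 7 were called lower under both agents, 30 of 65, where 10.1% of all probe sets were called the same way under both. None was called in opposite directions, and 26 were called under neither agent. Across the 65 receptors the differences of undecanal and vehicle pools correlated with Pearson's r of 0.966 and Spearman's rho of 0.957, given as a description, since the receptors share arrays and are not independent replicates. 25 receptors were higher in titled GFP+ in all 8 pools, 9 were lower in all 8, and 31 had mixed signs. No share over all probe sets or over the other receptors is given for these counts. They therefore do not show whether a constant sign was more frequent on chromosome 10.

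**Figure D3:**
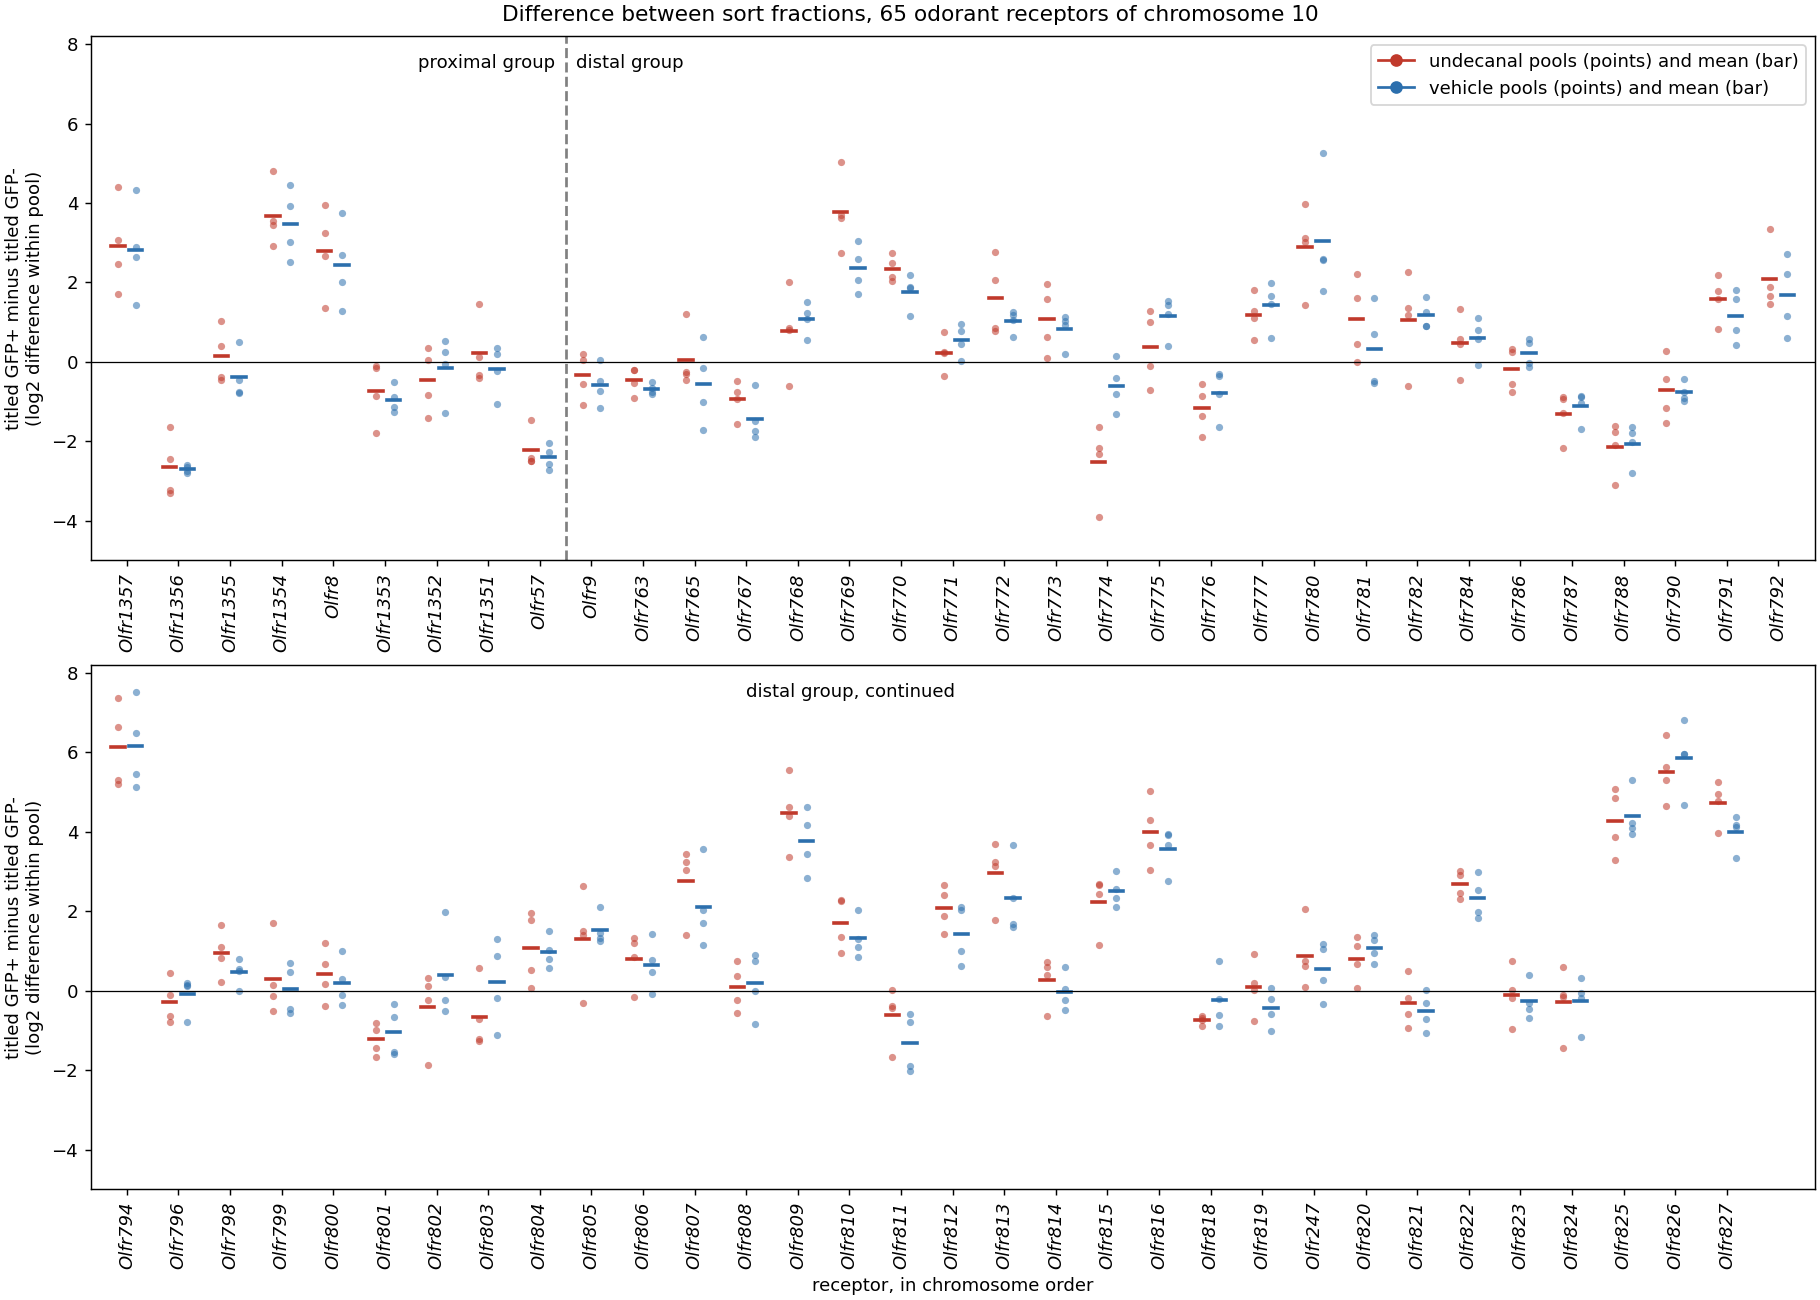
Difference between sort fractions (titled GFP+ minus titled GFP- within a pool, log2, y axis) for the 65 odorant receptors in chromosome order (x axis, equal steps), in 2 rows with a dashed line between the proximal and the distal group. Each point is 1 pool and each bar the mean of 4 pools, undecanal (red) left of vehicle (blue); Olfr794 and the run from Olfr825 to Olfr827 stand highest, Olfr1356, Olfr57 and Olfr788 lowest, and receptors of opposite sign stand next to each other.

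In vehicle pools the median difference was -0.18 over the 9 proximal receptors, 3 higher and 3 lower, and 0.58 over the 56 distal receptors, 21 higher and 6 lower. The difference between these groups was not tested. Within them higher and lower receptors stood next to each other. Of 63 pairs of neighbours within a group, 10 were both called higher in vehicle pools, 1 pair (Olfr787 and Olfr788) was both called lower, 6 had opposite calls, 29 had a single call and 17 had none. The pairs with opposite calls were Olfr1357 and Olfr1356, Olfr8 and Olfr1353, Olfr775 and Olfr776, Olfr776 and Olfr777, Olfr810 and Olfr811, and Olfr811 and Olfr812. The median gap between the differences of neighbours was 1.35, against 1.45 over all 1576 pairs within a group. The longest runs of calls in 1 direction held 3 receptors, Olfr791, Olfr792 and Olfr794 and then Olfr825 to Olfr827. Of the 26 receptors with a RefSeq sequence on the plus strand 9 were higher and 4 were lower, and of the 26 on the minus strand 10 were higher and 3 were lower.

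11 pairs of receptors shared at least 45 of the first 50 coding bases. In vehicle pools both members were called the same way in 3 of these pairs, they were called opposite ways in 1, a single member was called in 4 and none in 3. The sign of the difference, called or not, matched in 10 of the 11 pairs and in 53.3% of all 1128 pairs. The same receptors recur in the 1128 pairs, and Olfr805 recurs in the 11. The 3 pairs called the same way were all higher: Olfr1354 and Olfr8 (3.48 and 2.44), Olfr825 and Olfr826 (4.39 and 5.86), and Olfr816 and Olfr822 (3.57 and 2.33). At this cut the pair called opposite ways was Olfr775 and Olfr776, printed above with 45 identical bases, which are adjacent. Olfr775 had 10.35, 9.97, 10.23 and 9.63 in vehicle arrays titled GFP+ against 8.83, 9.57, 9.02 and 8.18 in vehicle arrays titled GFP-, a difference of 1.14 (SE 0.30, limma adjusted p = 0.0123). Olfr776 had 11.86, 11.52, 11.75 and 11.89 in vehicle arrays titled GFP+ against 12.23, 13.17, 12.55 and 12.20 in vehicle arrays titled GFP-, a difference of -0.78 (SE 0.23, limma adjusted p = 0.0261). In undecanal pools Olfr775 did not pass (0.36), and Olfr776 was lower (-1.17). Olfr765 (0.04) and Olfr767 (-0.94), which share 49 bases, also differed in sign in undecanal pools. Olfr9 and Olfr763, whose starts are also identical over all 50 bases, were called under neither agent (-0.59 and -0.69 in vehicle pools). The share of matching signs depended on the cut of 45 bases. At 40 to 44 shared bases the signs in vehicle pools still matched in most pairs, but in a smaller share than at the cut. Called opposite ways there were Olfr775 and Olfr787 (1.14 and -1.12), Olfr805 and Olfr811 (1.54 and -1.33), and Olfr811 and Olfr812 (-1.33 and 1.44). Called the same way were Olfr776 and Olfr787, Olfr805 and Olfr812, Olfr780 and Olfr791, Olfr769 and Olfr780, and Olfr791 and Olfr807. Whether shared probe signal carries part of the likeness was not tested.

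Undecanal itself changed no receptor of chromosome 10 past the threshold. In the fraction titled GFP+, 0 of the 65 receptors were called between undecanal and vehicle pools by limma, against 0.00450% of all probe sets, and 2 had an unadjusted p under 0.05, against 2.72% of all probe sets. Both were lower, where 1.61% of all probe sets were higher and 1.11% lower at that p. The differences ran from -0.83 to 0.77, with a median of 0.07 for the 65 receptors, 0.00 for the other receptors and 0.01 for all probe sets. The smallest p was that of Olfr775, which had 9.59, 8.63, 9.03 and 9.62 in undecanal arrays against 10.35, 9.97, 10.23 and 9.63 in vehicle arrays. These groups did not overlap, though the highest undecanal array nearly met the lowest vehicle array, and the difference of -0.83 (SE 0.30, limma adjusted p = 0.999) did not pass. Olfr773 (-0.77), Olfr774 (-0.55), Olfr765 (0.59) and Olfr811 (0.56) followed. 3 of the 65 receptors had groups without overlap, against 1.87% of all probe sets. The median SE of these differences was 0.31 with 4 pools per agent, and the number of pools limits which changes could be detected.

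In the fraction titled GFP- 0 of 65 receptors were called as well, and 4 had an unadjusted p under 0.05 by limma, against 4.12% of all probe sets. Of these 1 was higher, against 2.13% of all probe sets, and 3 were lower, against 1.99%. 1 receptor had groups without overlap, against 2.20% of all probe sets. Olfr774 was picked as the receptor with the smallest p of the 65 in this fraction. It had 8.57, 8.96, 8.80 and 8.02 in undecanal arrays titled GFP- against 7.53, 7.09, 7.03 and 7.24 in vehicle arrays titled GFP-. The groups did not overlap, and the difference was 1.36 (SE 0.29, 95% interval 0.75 to 1.98, unadjusted p = 2.18e-04 by limma), but the limma adjusted p was 0.604, and it ranged from 0.101 to 1.00 under the alternatives. In arrays titled GFP+ the same receptor had 6.40, 5.04, 6.49 and 6.37 after undecanal against 6.22, 6.67, 7.16 and 6.44 after vehicle, which overlap. Its difference between fractions was -2.51 in undecanal pools (limma adjusted p = 4.79e-06) and -0.60 in vehicle pools (limma adjusted p = 0.210). Within pools it was -2.16, -3.92, -2.31 and -1.65 under undecanal and -1.31, -0.42, 0.14 and -0.80 under vehicle, without overlap, and the test of this change gave -1.91 (SE 0.41, unadjusted p = 2.37e-04, limma adjusted p = 1.00). The differences between fractions and this test reuse the arrays titled GFP- on which Olfr774 was picked. They are therefore not independent of the comparison within that fraction.

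None of the 4 other receptors with the smallest p in the fraction titled GFP- passed. In 3 of them the difference was negative. Olfr769 had 6.51, 6.10, 3.79 and 4.29 in undecanal arrays titled GFP- against 6.28, 6.51, 6.11 and 6.69 in vehicle arrays titled GFP-, a difference of -1.22. Olfr772 had 7.38, 7.68, 5.30 and 6.19 in undecanal arrays titled GFP- against 8.11, 8.28, 7.54 and 7.08 in vehicle arrays titled GFP-, a difference of -1.12. Olfr773 had 7.27, 7.26, 5.42 and 5.78 in undecanal arrays titled GFP- against 7.69, 7.75, 7.18 and 7.16 in vehicle arrays titled GFP-, a difference of -1.01. In all 3 receptors undecanal pools 3 and 4 were the low ones. The difference of Olfr802 was positive, at 0.73. For the change of the fraction difference with undecanal, 0 of 65 receptors were called and 2 had an unadjusted p under 0.05 by limma, against 2.63% of all probe sets. Of these 1 was positive, against 1.35% of all probe sets, and 1 was negative, against 1.28%, and 1 receptor had separate groups, against 2.30%. After Olfr774 the smallest p were those of Olfr769 (1.42), Olfr775 (-0.78), Olfr770 (0.57) and Olfr802 (-0.82), with limma adjusted p = 1.00 for each.

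**Figure D4:**
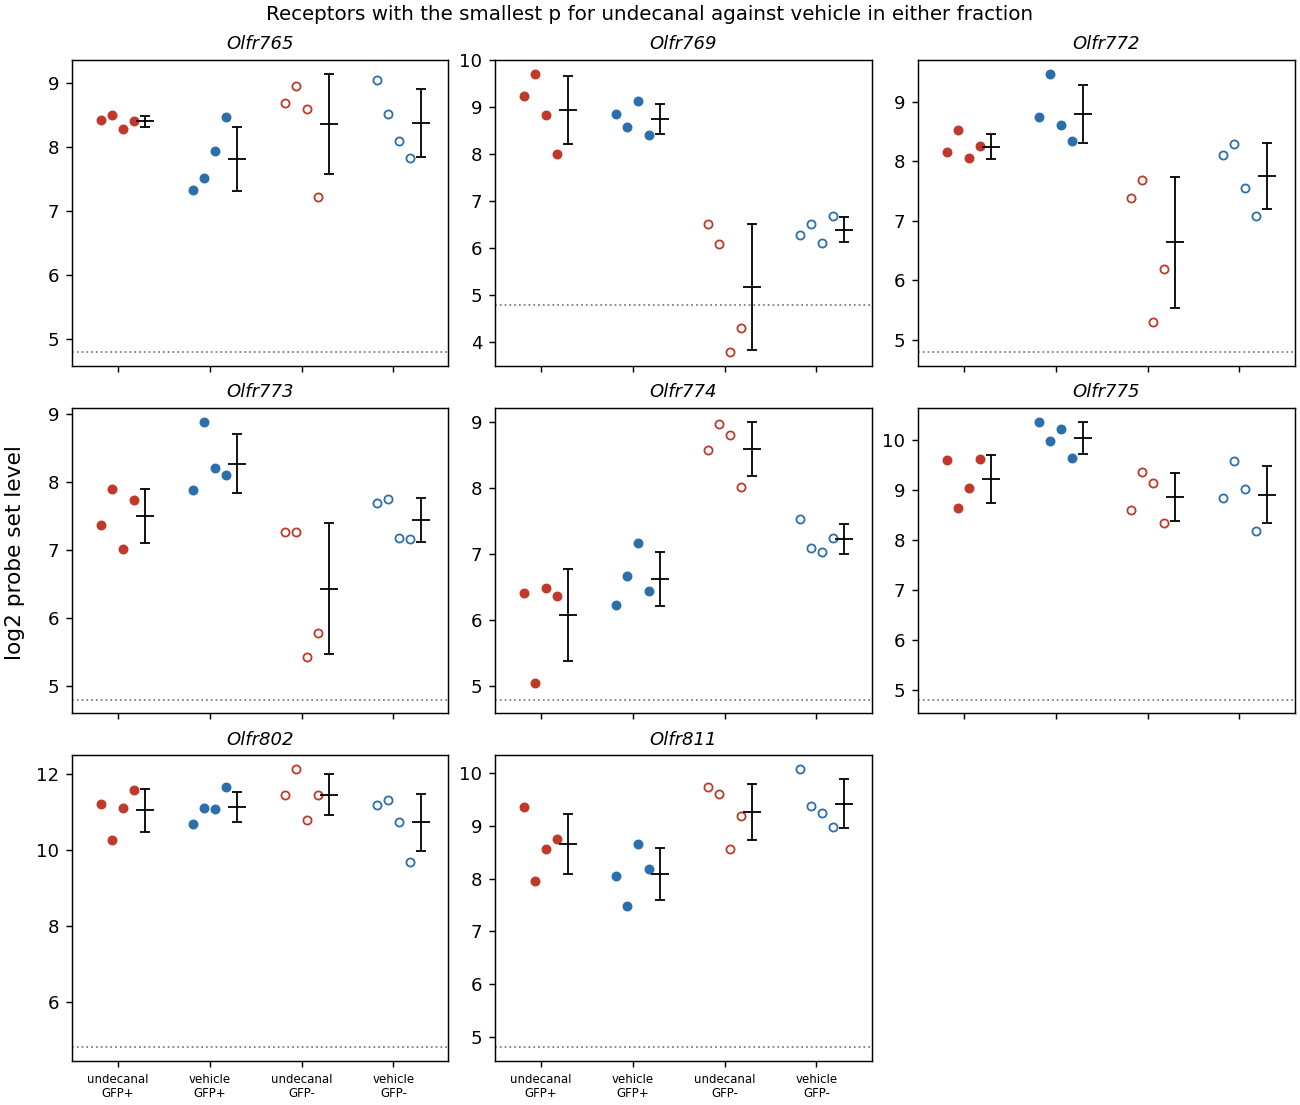
Log2 probe set level (y axis, a scale per panel) of the 8 receptors with the smallest p for undecanal against vehicle in either fraction. Each point is 1 array, in the order undecanal and vehicle titled GFP+ (filled) and undecanal and vehicle titled GFP- (open), bars give mean ± SD (n = 4) and the dotted line is the background level of 4.80; Olfr774 in the fraction titled GFP- (8.02 to 8.96 after undecanal, 7.03 to 7.53 after vehicle) shows separate groups, while most other groups overlap.

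Genes listed for receptor signalling and trafficking, receptor choice and activity were set beside the receptors. Of 20 measured genes of receptor signalling and trafficking, 2 were higher and 4 were lower in the fraction titled GFP+ of vehicle pools, against 8.82% higher and 5.12% lower over all probe sets. The median difference was -0.16 for these genes and -0.11 for all probe sets. Rgs2, a regulator of G protein signalling, was higher by 5.70, and Pde2a, a phosphodiesterase, by 3.43. Which cells carried these 2 transcripts was not tested, and the immune cell markers were higher in the same fraction by a median of 8.62. Pde1c, a calmodulin-dependent phosphodiesterase of the cilia, differed by -0.65, Slc24a4, the exchanger that ends the response, by -0.60, Pde4a by -0.53, and Ano2, the calcium-activated chloride channel, by -0.51. Adcy3, Cnga2 and Gnal, the cyclase, channel and G protein of the pathway, did not pass (-0.34, -0.13 and -0.15). Of 19 genes tied to receptor choice 3 were higher, against the same 8.82% of all probe sets: Smchd1 (1.35), Lbr, the lamin B receptor (1.07), and Cbx5, a heterochromatin protein (0.72), while Lhx2, Ldb1 and the Ebf factors did not pass. All 5 measured genes known to rise with the activity of these neurons were lower, against 5.12% of all probe sets. They were Lrrc3b (-1.88), Pcp4l1 (-1.71), Pcdh10 (-1.46), Kirrel2 (-1.16) and S100a5 (-0.91). In undecanal pools 4 of the 5 were lower, against 4.36% of all probe sets. The cells were sorted on a reporter under S100a5 control, so the direction of S100a5 was not independent of the sort. Between undecanal and vehicle pools 1 of these 5 was called: Pcdh10, a protocadherin, averaged 9.21 in undecanal arrays titled GFP+ and 7.29 in vehicle arrays titled GFP+, a difference of 1.91 (limma adjusted p = 2.05e-03), the single call among all 22206 probe sets in that comparison. This call was lost when only the 2 groups compared were fitted (limma adjusted p = 0.130). None of the signalling or choice genes was called between undecanal and vehicle pools.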

How the data were processed

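The values are log2 summaries per probe set of 16 Clariom S arrays, as deposited by the authors. The submitters' processing notes name Affymetrix Expression Console. The algorithm and the build were not given in the sources used here. Depth is not defined for arrays, and their number limits the precision.

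Without the 6640 control probe sets, 22206 of 28846 were fitted with limma 3.58.1 in R 4.3.3 as 4 group means over all 16 arrays, without a block, with Benjamini-Hochberg adjustment over all probe sets and a threshold of 0.05. A difference is of log2 levels of the same probe set. Only the background level, which comes from other probe sets, was set against the levels of single receptors. Each of the 65 receptors had 1 probe set and matched RefSeq (GRCm38.p6) by gene identifier, with 0 symbols changed. The test was checked on simulated data with independent noise in each array. That check does not cover the correlation between arrays that share a pool or a number.

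The labels' pools of 3 mice make same-numbered arrays of an agent fractions of the same mice. The correlation of the deviations of these 2 fractions from group means lay between 0.050 and 0.271, and above 0.1 in 6 of 8 pools. Same-numbered arrays of different agents, from different mice, gave r from -0.04 to 0.29 over all probe sets. The correlation within pools therefore cannot show by itself that fractions share mice. Nothing ties the spread to single mice, so p-values rest on the spread between pools. Within groups the correlation between arrays was 0.989 to 0.993, and 0 pairs of arrays were identical.

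Members, gene lists and comparisons were chosen with earlier results of these data known. Named were up to 12 of the highest and up to 12 of the lowest called receptors between fractions of vehicle pools. Their undecanal fraction differences are printed for some and drawn for all. Also named were the 5 smallest p for each effect of undecanal, the 9 proximal receptors, up to 4 passing genes per list, S100a5 and Omp. The lists were markers of mature and immature olfactory neurons, basal, sustentacular, microvillar, immune and erythroid cells, and genes of receptor signalling, receptor choice and activity. Close pairs were to be named by protein identity. Proteins were not used here, so the first 50 coding bases took their place, a choice made after seeing the data. 52 of the 65 receptors had a RefSeq window around the gene start, and in 48 it held ATG at that start, so these gene models begin at the coding sequence and the windows were not read as promoters. Alternatives covered scaling, dim probe sets, array weights, the prior variance, the arrays fitted, replicate blocks and left-out pools.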

Additional observations from a re-analysis of the deposited data

Results flagged for a closer look

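In 264 groups of 4 arrays, made from the named genes, 16 had 1 array far from the other 3 by Dixon's test. Chance alone flags about 1 in 20 such groups. Of receptors, vehicle titled GFP- replicate 3 was low in Olfr825 (4.51, the nearest other array at 5.58), undecanal titled GFP+ replicate 3 was low in Olfr827 (9.41, nearest 9.90), and undecanal titled GFP+ replicate 2 was low in Olfr787 (9.57, nearest 10.37) and in Olfr774 (5.04, nearest 6.37). Vehicle titled GFP- replicate 4 was high in Olfr1353 (7.77, nearest 6.87), and undecanal titled GFP- replicate 1 was high in Olfr1351 (5.60, nearest 4.83).

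Among neuronal genes, vehicle titled GFP- replicate 2 was low in Omp (18.71, nearest 18.87) and Ano2 (17.26, nearest 17.41), vehicle titled GFP- replicate 1 was high in Gng8 (6.92, nearest 5.94), undecanal titled GFP+ replicate 2 was high in Dpysl3 (12.45, nearest 11.52), and undecanal titled GFP- replicate 3 was low in Cbx5 (8.08, nearest 8.70). Among markers of other cells, undecanal titled GFP+ replicate 1 was high in Sult1c1 (11.94, nearest 11.11) and Cyp2g1 (15.98, nearest 15.09), vehicle titled GFP- replicate 2 was low in Cyp2g1 (12.13, nearest 13.72), vehicle titled GFP+ replicate 4 was low in Lcn2 (16.14, nearest 16.93), and undecanal titled GFP+ replicate 4 was low in S100a8 (13.20, nearest 14.15).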

How the results depend on the processing

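The counts of called receptors kept within 1.5 times under most alternatives. With arrays centred on their median, 17 receptors were called lower in vehicle pools and 14 in undecanal pools, against 9 each. Leaving out a pool gave 20 to 27 receptors higher and 5 to 9 lower in vehicle pools, and 19 to 28 higher and 6 to 10 lower in undecanal pools. No receptor was called for undecanal against vehicle or for the interaction under any alternative that could give the value; pools are nested in agents, so the fixed pool block gives none for undecanal against vehicle. With the pool as a replicate block, 28 receptors were higher and 9 lower in vehicle pools as a fixed block and 25 and 9 as a random block (consensus correlation 0.167). Of the named receptors, the fixed block changed only the call of Olfr776 in vehicle pools. Of 1993 values of named genes under alternatives, 45 lost their call, 7 gained one and 26 changed sign. The sign changes were all in differences that had not passed. They were as follows, with the cause not tested. Between fractions of vehicle pools, Olfr1352 was 0.056 with mature neuron centring, 0.093 with receptor median centring and -0.37 to 0.24 with a pool left out. Olfr1351 was 0.019 and 0.056 under the same 2 centrings and -0.36 to 0.11 with a pool left out. In undecanal pools Olfr1355 was -0.21 with array median centring, -0.086 after quantile normalization, -0.00763 with array weights and -0.14 to 0.35 with a pool left out. Olfr1351 was -0.15 with array median centring and -0.20 to 0.42 with a pool left out. Omp between fractions was 0.15 in undecanal and 0.20 in vehicle pools with mature neuron centring, 0.038 in undecanal and 0.24 in vehicle pools with receptor median centring, and -0.048 to 0.019 in vehicle pools with a pool left out. After quantile normalization Omp was 0.056 for undecanal in titled GFP+ and 0.032 for the interaction. With a pool left out Omp was -0.019 to 0.043 for undecanal in titled GFP- and -0.065 to 0.00188 for the interaction, and S100a5 was -0.18 to 0.062 for the interaction. 4 pools per agent limit all of these, and levels below 4.80 cannot be told from background.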

Other observations

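The pool number was shared by both agents in the titles, and arrays with the same number deviated together in the receptors of chromosome 10. Over the 65 receptors, deviations from group means of same-numbered undecanal and vehicle arrays correlated with r from 0.18 to 0.25 in titled GFP+ and from 0.33 to 0.52 in titled GFP-, and those of arrays with different numbers with r from -0.19 to 0.04 and from -0.50 to 0.12. Deviations from a group mean cancel within the group, so the values for same and for different numbers are not independent of each other. Over all 1091 receptors same numbers gave r from 0.20 to 0.29 in titled GFP+ and from 0.26 to 0.41 in titled GFP-. Over all 22206 probe sets they gave r from 0.03 to 0.29 in titled GFP+ and from -0.04 to 0.22 in titled GFP-. Different numbers gave r from -0.16 to 0.14 in titled GFP+ and from -0.19 to 0.13 in titled GFP- over all probe sets, which covers most of these values. Olfr1357 shows same-numbered arrays deviating together in the fraction titled GFP-. There number 2 was the lowest array under undecanal (6.11) and under vehicle (5.75), and number 1 the highest (8.76 under undecanal and 9.10 under vehicle). The labels do not say what a shared number stands for. An alternative chosen after seeing the data, with the number as a replicate block, called 28 higher and 8 lower in undecanal pools, 26 receptors higher and 10 lower in vehicle pools, and 0 for each effect of undecanal.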
